A study of Mus musculus with 42 samples.

Results

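TRBV14, called Vβ13 in the older naming of mouse T-cell receptor segments, was followed through 5 libraries of rearranged T-cell receptor beta chains. Its clonotypes were chosen by the V segment listed for them, with a CDR3, the complementarity-determining region at the joint, in frame and free of stop codons. They numbered 1178 of 28186 such productive clonotypes, or 4.18%. Each CDR3 nucleotide sequence together with its V and its J name counts as a clonotype, once in each library that holds it. The segment itself was selected on its higher share in CD8 than in CD4 T cells of these same libraries, so its shares are given as a description and without a test.

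The study deleted NIK, the NF-κB-inducing kinase, in mice carrying Foxn1Cre, a Cre that is active in thymic epithelial cells and so outside the T cells that were sequenced. WT denotes Foxn1Cre x NIKfl/wt, a control that carries the Cre and a floxed allele beside an intact one, and KO denotes Foxn1Cre x NIKfl/fl; no age is given in the labels. Conventional cells were sorted as CD8+CD25-CD62L+ or CD4+CD25-CD62L+, and regulatory T cells (Tregs) as CD4+CD25hi. The 5 libraries were WT spleen CD8 (mouse 614), KO spleen CD8 (mouse 617), KO spleen CD4 (mouse 597), KO lung CD4 (also mouse 617) and KO thymus Treg (mouse 618). Each is the sole library of its group here, so no value has a replicate, no p-value is given, and genotype, lineage, organ and mouse mostly differ together. Transcripts of Cd4, Cd8a, Foxp3 and the floxed gene are not read by this assay, so the gates and genotypes could not be checked. The libraries held 98655 to 205882 reads and 1724 to 16703 productive clonotypes, the most clonotypes in WT spleen CD8. All intervals are 95% intervals for counting error only; reads are PCR copies without a stated molecular identifier, so usage was counted per clonotype.

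A beta chain is made by joining a V, a D and a J segment, with bases trimmed from and added to the ends, and the joint encodes the CDR3 that contacts the peptide. The V segment encodes the first and second loops, which mostly contact the MHC molecule: class I for CD8 T cells and class II for CD4 T cells. V segments are therefore known to differ in how often they appear in the CD8 and the CD4 lineage. Trbv14 lies on chromosome 6 at 41135167 to 41135616 of GRCm38.p6, the build also called mm10, where RefSeq lists it as a V segment of 450 bases between Trbv13-3 and Trbv15. Its end lies 397585 bases before Trbd1.

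The part of TRBV14 that enters the CDR3 is shown first, since it sets much of what follows. The stretches below are the commonest start of TRBV14 CDR3s that kept the stated number of V bases, read 5′ to 3′ from the Cys codon, with capitals for the bases past the Ser codons.
TRBV14 with 11 bases kept: tgtgccagcag
TRBV14 with 12 bases kept: tgtgccagcagt
TRBV14 with 14 bases kept: tgtgccagcagtTT
TRBV14 with 15 bases kept: tgtgccagcagtTTC
TRBV14 with 17 bases kept: tgtgccagcagtTTCTA
They were carried by 194, 165, 278, 233 and 16 clonotypes in that order. The TTC codon after Cys-Ala-Ser-Ser encodes Phe, so a clonotype that kept 15 V bases reads CASSF.

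The most read TRBV14 clonotype of each library is shown next, with the bases between the listed V and J ends in capitals, because a few such clones carry much of the reads discussed further on.
WT spleen CD8, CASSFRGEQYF: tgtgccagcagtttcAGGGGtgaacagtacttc
KO spleen CD8, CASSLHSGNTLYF: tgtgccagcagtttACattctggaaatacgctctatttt
KO spleen CD8, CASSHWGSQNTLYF, the next most read: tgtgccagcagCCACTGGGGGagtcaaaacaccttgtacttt
KO spleen CD4, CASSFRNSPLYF: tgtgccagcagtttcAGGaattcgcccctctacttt
KO lung CD4, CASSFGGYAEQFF: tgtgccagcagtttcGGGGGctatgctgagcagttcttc
KO thymus Treg, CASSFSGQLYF: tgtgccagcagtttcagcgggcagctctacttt
The Treg clone has no base between its V and J ends, and no D segment is listed for it. In the lung CD4 clone the 5 bases in capitals are all assigned to TRBD1, so no base counts as inserted.

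TRBV14 was used more often in both CD8 libraries than in the 3 CD4-lineage libraries. Its share of productive clonotypes was 5.53% in WT spleen CD8 (923 of 16703, interval 5.18 to 5.88) and 4.43% in KO spleen CD8 (117 of 2644, 3.67 to 5.28). It was 1.74% in KO spleen CD4 (30 of 1724, 1.18 to 2.48), 1.37% in KO lung CD4 (46 of 3354, 1.01 to 1.83) and 1.65% in KO thymus Treg (62 of 3761, 1.27 to 2.11). Both CD8 intervals lay above all 3 CD4-lineage intervals, but the segment was selected on this difference, so the separation is no independent evidence. The CD4-lineage intervals overlapped one another. The CD8 intervals also overlapped each other, although the interval of their ratio, given below, excluded 1 (0.664 to 0.966). Among all TRBV segments TRBV14 ranked 9 of 29 in WT CD8 and 11 of 29 in KO CD8, against 18 of 26, 18 of 28 and 18 of 28 in spleen CD4, lung CD4 and Treg.

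**Figure D1:**
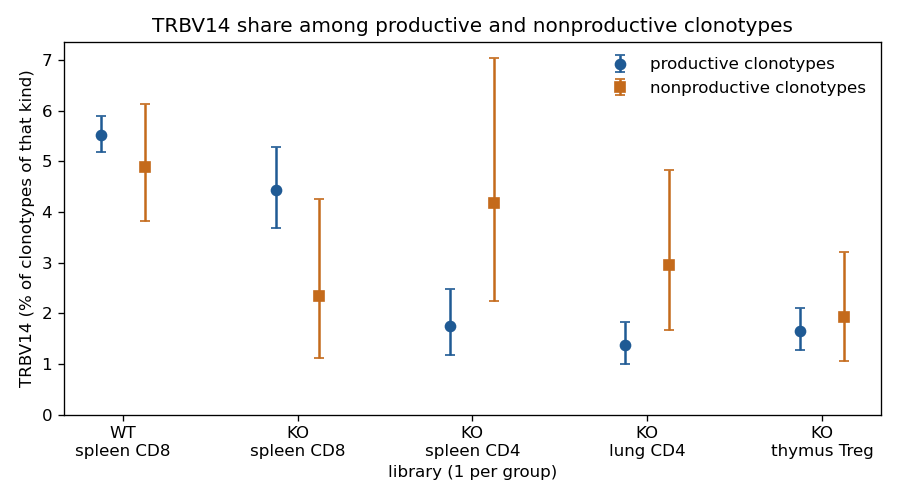
TRBV14 as a percentage of productive (circles) and nonproductive (squares) clonotypes in each of the 5 libraries, with exact 95% intervals for counting error. The productive share is 5.53% and 4.43% in the CD8 libraries and between 1.37% and 1.74% in the 3 CD4-lineage libraries, while the nonproductive share runs from 1.92% to 4.88% without that split.

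Nonproductive rearrangements, out of frame or with a stop codon, are a reading of usage that the choice of the segment did not use. A T cell can carry one on its other chromosome, where it makes no receptor and is not itself selected, although its transcript is prone to decay. TRBV14 took 4.88% of them in WT spleen CD8 (69 of 1415, interval 3.81 to 6.13) and 2.34% in KO spleen CD8 (10 of 428, 1.13 to 4.26). It took 4.18% in KO spleen CD4 (13 of 311, 2.24 to 7.04), 2.96% in KO lung CD4 (15 of 507, 1.67 to 4.83) and 1.92% in KO thymus Treg (14 of 729, 1.05 to 3.20). The nonproductive share thus showed no split by lineage like that of the productive share: spleen CD4 and WT CD8 were highest and KO CD8 and Treg lowest, with KO CD8 and both conventional CD4 libraries overlapping.

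The ratio of the productive to the nonproductive share was below 1 in both conventional CD4 libraries, at 0.416 in spleen (0.220 to 0.789) and 0.464 in lung (0.261 to 0.824). It was 0.858 in Treg (0.483 to 1.53), 1.13 in WT CD8 (0.893 to 1.44) and 1.89 in KO CD8 (1.001 to 3.58). The lower bound in KO CD8 stood at 1 to within rounding and the WT CD8 and Treg intervals included 1. Some nonproductive sequences lie 1 base, changed, lost or gained, from a clonotype of the same V with at least 10 times the reads, where copies with a read error would also lie. With those near copies removed, the nonproductive count fell to 40 in WT CD8, 7 in KO CD8, 10 in spleen CD4 and 11 in Treg and stayed at 15 in lung CD4. The ratio was then 1.61 in WT CD8 (1.18 to 2.19), 2.43 in KO CD8 (1.14 to 5.18), 0.479 in spleen CD4 (0.237 to 0.968), 0.422 in lung CD4 (0.238 to 0.750) and 0.971 in Treg (0.514 to 1.83). Limited instead to nonproductive sequences of usual start and length, it was 1.02 in WT CD8 (0.794 to 1.30), 1.98 in KO CD8 (0.879 to 4.45), 0.263 in spleen CD4 (0.137 to 0.504), 0.337 in lung CD4 (0.187 to 0.607) and 0.697 in Treg (0.370 to 1.31). The nonproductive share of spleen CD4 was then 6.63%. The 2 CD8 ratios thus depend on which nonproductive sequences are counted. The productive share in the numerator is the value on which the segment was selected, so the order of these ratios by lineage is no independent evidence.

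Seen from within the segment, 30.2% of all TRBV14 clonotypes of KO spleen CD4 were nonproductive (13 of 43, 17.2 to 46.1), and 24.6% of those of KO lung CD4 (15 of 61, 14.5 to 37.3). Other V segments stood at 14.96% and 12.9% in the same libraries. In WT CD8 the TRBV14 value was 6.96% against 7.86% for other segments, and in Treg 18.4% against 16.2%. In KO CD8 it was 7.87% (3.84 to 14) against 14.2% (12.95 to 15.5), and these intervals overlap. These shares also count the productive clonotypes on which the segment was selected. Their order by lineage is therefore no independent evidence. The most read nonproductive TRBV14 sequences are shown for the libraries with the largest and smallest productive share, with capitals between the V and J ends.
WT spleen CD8, 18 reads: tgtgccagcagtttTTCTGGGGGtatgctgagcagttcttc
KO lung CD4, 12 reads: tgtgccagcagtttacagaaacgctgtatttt
Both have lengths, 41 and 32 bases, that leave 2 bases beyond whole codons. The first reads through D and J bases in the wrong frame, and the second joins V to J with no base between. Nonproductive TRBV14 clonotypes had a median of 1 read in both CD8 libraries, 5 in spleen CD4, 4 in lung CD4 and 10 in Treg, whereas those of other V segments had 1, 1, 2, 2 and 2. Whether read number plays a part in these shares was not tested.

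The segments at the ends of the order from KO spleen CD8 to KO spleen CD4 were compared over the same libraries. TRBV29, at the CD8 end of that order, was at 5.05% and 3.56% of productive clonotypes in WT and KO CD8 and at 1.10% to 1.55% in the CD4-lineage libraries. Its nonproductive share was 1.84% and 1.40% in CD8 and 0.643% to 0.986% in the other libraries, on 2 to 26 clonotypes per library. The CD8 intervals were 1.20 to 2.68 and 0.516 to 3.03. They overlapped those of spleen CD4 (0.078 to 2.30), lung CD4 (0.321 to 2.29) and Treg (0.223 to 1.59). TRBV2, at its CD4 end, was at 6.09%, 3.82% and 3.83% of productive clonotypes in spleen CD4, lung CD4 and Treg. In WT and KO CD8 it was at 1.56% and 1.74%. Its nonproductive share was 1.61%, 2.56%, 1.24%, 1.70% and 1.87% in the same order. As with TRBV14, that share showed no such split by lineage.

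Ratios of shares place TRBV14 among all TRBV segments that reached 1% in one or both of the libraries compared. A segment is counted past the fold at a ratio of at most 0.8 or at least the inverse of 0.8. Between KO spleen CD8 and KO spleen CD4, 17 of 22 segments (77.3%) were past it, and TRBV14 was the second highest at 2.54 (1.71 to 3.78), after TRBV29 at 3.23 and before TRBV12-2 at 2.03. Between KO spleen CD8 and KO lung CD4, which came from the same mouse, 15 of 19 (78.9%) were past it, and TRBV14 was the highest at 3.23 (2.30 to 4.52), next to TRBV12-1 at 3.12. Weighted by reads, the ratios were 1.43 to spleen CD4 and 1.70 to lung CD4, both below the intervals given. Most segments were past the fold between these lineages, so a ratio past it is not particular to TRBV14, and both comparisons share the KO CD8 library.

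**Figure D2:**
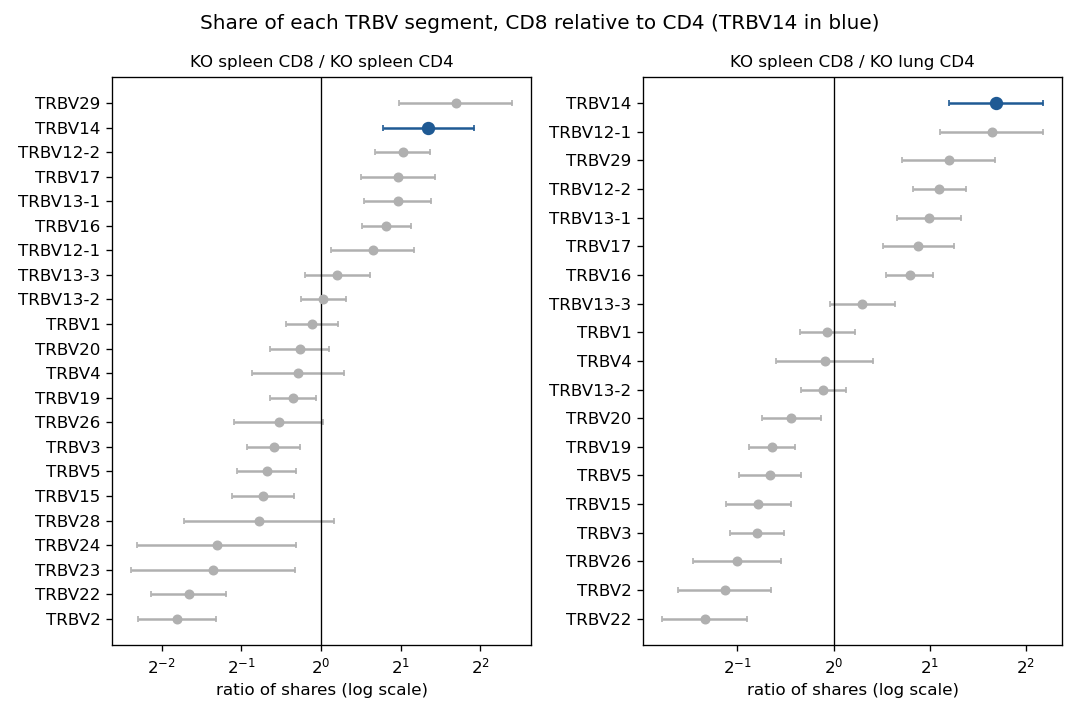
Ratio of the share of each TRBV segment in KO spleen CD8 to that in KO spleen CD4 (left) and KO lung CD4 (right), on a log scale with 95% intervals for counting error. TRBV14, in blue, stands at 2.54 and 3.23, second of 22 and first of 19 segments.

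Between the genotypes, the CD8 share of TRBV14 was lower in KO than in WT, with a ratio of 0.801 (0.664 to 0.966). That value is just short of the fold of 0.8, which 3 of 19 segments (15.8%) were past. Its neighbours in the order were TRBV4 at 0.807 and TRBV12-1 at 0.796. Between KO lung and spleen CD4 the ratio was 0.788 (0.499 to 1.24) with 6 of 22 segments (27.3%) past the fold, and the interval included 1. Between KO Treg and spleen CD4 it was 0.947 (0.615 to 1.46) with 4 of 22 (18.2%) past the fold.

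Weighted by reads, TRBV14 took 7.82% of productive reads in WT CD8, 5.16% in KO CD8, 3.61% in spleen CD4, 3.04% in lung CD4 and 2.26% in Treg. The read share exceeded the clonotype share in every library. Without the leading TRBV14 clone it was 7.70%, 2.85%, 1.73%, 1.90% and 2.08% in the same order. Leaving out 1 clone thus lowered the read share by more than 1 percentage point in KO CD8, spleen CD4 and lung CD4, and to below the clonotype share in KO CD8 and spleen CD4.

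The segments with the most similar pattern were found by the distance between log2 shares, each centred on its own mean, over the 5 libraries and 18 other segments with a mean share of at least 1%. They were TRBV29 (distance 0.618), TRBV12-1 (0.654) and TRBV12-2 (0.781), followed by TRBV17 at 0.855. TRBV12-1 stood at 4.56% and 3.63% in WT and KO CD8, at 2.32% in spleen CD4, 1.16% in lung CD4 and 1.91% in Treg. TRBV12-2 stood at 9.18% and 9.91% in CD8 and at 4.60% to 4.87% in the other libraries. The largest distance was that of TRBV22, at 3.89.

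J segments lie in a TRBJ1 and a TRBJ2 cluster, each behind its own D segment. TRBV14 joined TRBJ1 segments in 27.7% of WT CD8 clonotypes (24.9 to 30.8) against 30.2% for other V segments, and in 37.6% of KO CD8 clonotypes (28.8 to 47.0) against 34.1%. In spleen CD4 the share was 43.3% (13 of 30, 25.5 to 62.6) against 33.8%, in lung CD4 21.7% (10 of 46, 10.95 to 36.4) against 37.3%, and in Treg 27.4% (17 of 62, 16.9 to 40.2) against 29.8%. The intervals of TRBV14 and of other V segments overlapped in each library; in lung CD4 the ratio was 0.583 (0.336 to 1.01), and weighted by reads the TRBV14 share there was 33.3%.

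Single J segments were compared in the libraries with at least 100 TRBV14 clonotypes. In WT CD8, TRBV14 was past the fold with 4 of 12 J segments, where 32.0% of all V and J pairs were. TRBJ1-2 took 3.47% of its clonotypes against 6.23% for other V segments (ratio 0.557, 0.394 to 0.786). TRBJ1-5 was at 2.06% against 3.14% (0.655, 0.416 to 1.03), TRBJ2-4 at 7.15% against 9.33% (0.767, 0.605 to 0.972) and TRBJ2-2 at 5.96% against 4.73% (1.26, 0.965 to 1.64). TRBJ2-7, the most used, was at 25.03% against 22.9%.

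In KO CD8, 7 of 12 J segments were past the fold against 48.6% of all pairs. TRBJ1-5 (7.69% against 3.44%, ratio 2.23, 1.15 to 4.33), TRBJ1-4 (7.69% against 4.79%, ratio 1.61) and TRBJ2-2 (6.84% against 4.39%, ratio 1.56) were on the high side. TRBJ1-2 (2 clonotypes, ratio 0.268), TRBJ1-6 (1 clonotype, 0.281), TRBJ2-3 (1 clonotype, 0.119, 0.0169 to 0.844) and TRBJ2-4 (6 clonotypes, 0.579) were on the low side. TRBJ1-2, TRBJ2-4 and TRBJ2-2 lay on the same side in both CD8 libraries, whereas TRBJ1-5 was low in WT and high in KO. Of the 7 in KO CD8, only the intervals of TRBJ1-5 and TRBJ2-3 excluded 1. Those of TRBJ1-2 (0.0674 to 1.07), TRBJ2-4 (0.263 to 1.27) and TRBJ2-2 (0.778 to 3.11) included it.

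**Figure D3:**
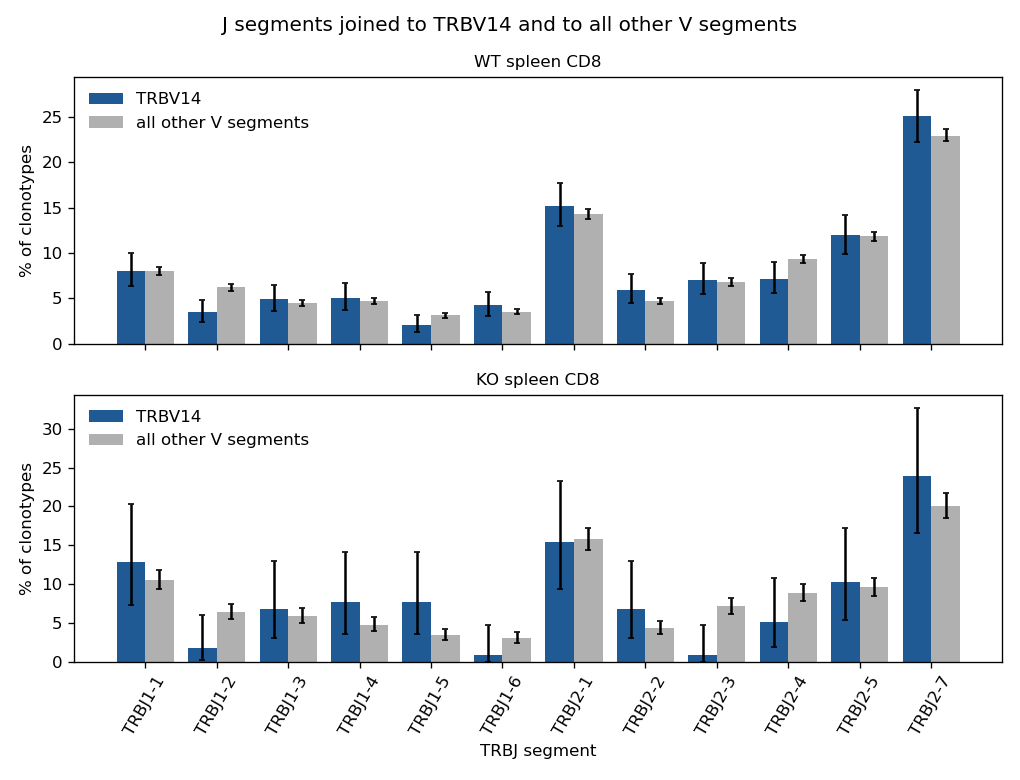
Share of each TRBJ segment among TRBV14 clonotypes (blue) and among clonotypes of all other V segments (grey) in WT and KO spleen CD8, in percent with exact 95% intervals. TRBJ1-2 is lower with TRBV14 in both libraries, at 3.47% against 6.23% in WT and 1.71% against 6.37% in KO. The KO intervals overlap.

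Of the 1178 TRBV14 CDR3s, 1159 were standard, meaning that they started with Cys, ended with Phe and held 8 to 20 residues. The other 19 included 2 longer than 20 residues, the longest of 91, and the values on length and sequence that follow are for standard CDR3s. TRBV14 CDR3s were short for their library outside the thymus. They averaged 13.01 ± 1.41 residues (SD over 910 clonotypes) in WT CD8 against 13.37 for other V segments, and 12.74 ± 1.36 (115 clonotypes) in KO CD8 against 13.27. The means were 12.86 ± 1.27 (29) against 13.10 in spleen CD4 and 12.78 ± 1.30 (45) against 13.14 in lung CD4. Counted from the shortest mean, TRBV14 was segment 3 of 21, 2 of 18, 3 of 19 and 3 of 20 in these libraries, where TRBV20 was shortest in each. In Treg it was at 13.67 ± 1.28 (60) against 13.58 and came 14 of 21. In all 5 libraries the difference was smaller than the SD among clonotypes.

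**Figure D4:**
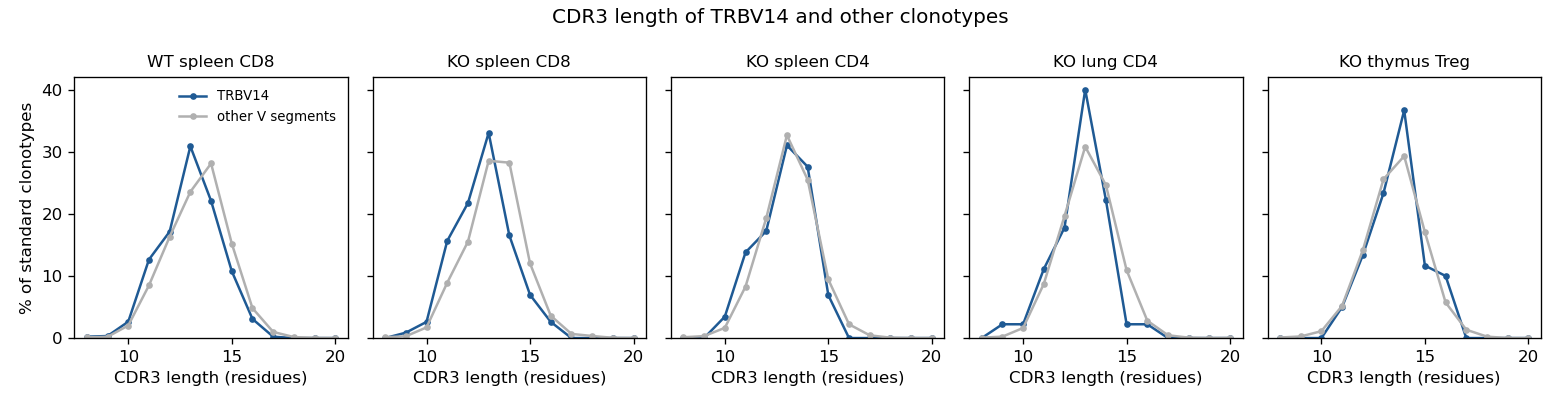
CDR3 length in residues of standard TRBV14 clonotypes (blue) and standard clonotypes of other V segments (grey) as a percentage of each, in the 5 libraries. In WT spleen CD8 the TRBV14 peak is at 13 residues, with 30.9% of clonotypes, and that of other segments at 14, with 28.1%.

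The shorter length was also seen with the J segment held fixed. In WT CD8, TRBV14 CDR3s were shorter than those of other V segments with the same J for each of the 11 J segments that had at least 20 TRBV14 clonotypes. The difference ran from -0.123 residues with TRBJ2-3 to -0.549 with TRBJ1-6. With TRBJ2-7 the means were 12.4 against 12.8 over 224 TRBV14 clonotypes.

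Bases that belong to no segment are added at the joint largely by terminal transferase, and some joints have none. The share of TRBV14 clonotypes without an inserted base was 45.3% in WT CD8 (42.01 to 48.6) against 42.0% for other V segments, and 59.1% in KO CD8 (49.6 to 68.2) against 47.9%. It was 55.2% in spleen CD4 (35.7 to 73.6) against 46.2%, 53.3% in lung CD4 (37.9 to 68.3) against 46%, and 30.0% in Treg (18.9 to 43.2) against 23.3%. The TRBV14 value was the higher in all 5 libraries, but its interval overlapped that of the other segments in each, in WT CD8 with 41.2 to 42.8 and in KO CD8 with 45.9 to 49.9. With the count limited to clonotypes with a D name, over all productive CDR3s, the values were 77.0% (65.8 to 86.01) against 57.3% (54.9 to 59.6) in KO CD8 and 83.3% (62.6 to 95.3) against 54.6% (52.5 to 56.7) in lung CD4, which do not overlap. They were 53.3% (49.3 to 57.2) against 48.7% (47.8 to 49.6) in WT CD8, 68.4% (43.5 to 87.4) against 54.1% in spleen CD4 and 30.4% (17.7 to 45.8) against 24.3% in Treg, which overlap. Weighted by reads, the KO CD8 value over all TRBV14 clonotypes fell from 58.1% to 22.0%. Of the segments compared in each library, 1 stood higher than TRBV14 in WT CD8, none in KO CD8 (of 17 others), 1 in spleen CD4, 4 in lung CD4 and 1 in Treg. The mean number of inserted bases was 1.53 in WT CD8 against 1.66, 1.31 in KO CD8 against 1.53, 1.38 in spleen CD4 against 1.58, 1.56 in lung CD4 against 1.65 and 2.47 in Treg against 2.61. For clonotypes with no D name, every base from V end to J start counts as inserted, so D bases may be among them.

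TRBD2 lies behind the TRBJ1 cluster, so the choice between D segments shows in joints to TRBJ2. There, over all productive clonotypes with a D name, TRBD1 was listed for 47.5% of those with TRBV14 in WT CD8 (238 of 501, 43.1 to 52.0) against 36.7% for other V segments. The values were 54% against 37.8% in KO CD8, 54.5% against 35.5% in spleen CD4, 57.9% against 38.9% in lung CD4 and 64.9% against 40.9% in Treg, on 50, 11, 19 and 37 TRBV14 clonotypes. TRBV14 stood above the other segments together in each library. The intervals of both did not overlap in WT CD8 (35.6 to 37.7 for the others) and in Treg (47.5 to 79.8 with TRBV14, 38.7 to 43.1 for the others), and overlapped in the rest. Among standard CDR3s of WT CD8, 3 other segments stood higher than TRBV14 and 17 lower. The D segments are short and alike, so a listed D rests on few bases.

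The residue after Cys-Ala-Ser-Ser, position 5 counted from the Cys, was Phe in 34.6% of TRBV14 clonotypes in WT CD8 and 39.1% in KO CD8. It was Phe in 27.6% in spleen CD4, 35.6% in lung CD4 and 38.3% in Treg, against 1.71% to 2.68% among other V segments. Phe is what the germline TTC codon shown above encodes. Leu followed with 23.8% in WT CD8 and 27.0% in KO CD8, near the 22.0% to 24.2% of other segments. Arg stood at this position in 5 of 29 clonotypes in spleen CD4, 4 of 45 in lung CD4 and 11 of 60 in Treg (18.3%), against 5.05% in WT CD8 and 4.35% in KO CD8. Arg was not chosen in advance, and its share among other V segments was not computed. Whether this difference between libraries is particular to TRBV14 was therefore not tested.

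TRBV14 CDR3s carried less negative charge than others. The mean net charge between the first and last 4 residues was -0.185 in WT CD8 against -0.441 for other V segments, and -0.139 in KO CD8 against -0.414. It was -0.034 against -0.438 in spleen CD4, -0.044 against -0.422 in lung CD4 and -0.117 against -0.383 in Treg, with SDs over TRBV14 clonotypes of 0.661 to 0.885. The difference was thus smaller than the spread among clonotypes in each library and had the same sign in all 5. In WT CD8, 4 other segments were less negative and 16 more so. Taken segment by segment, the median of the others was -0.288 in WT CD8, -0.313 in KO CD8 and -0.272 in spleen CD4. It was -0.3135 in lung CD4 and -0.3455 in Treg. In each library it lay nearer the TRBV14 value than the mean over all other clonotypes did.

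The motif Asp-Trp-Gly, which TRBD2 encodes in one of its reading frames, was found in 52 of 910 TRBV14 clonotypes in WT CD8 (5.71%, 4.30 to 7.43) against 8.47% in other V segments. None of 115 carried it in KO CD8, against 9.54% in other V segments; the limit that a count of 0 allows, taken as 3 counts of the total, is 2.61%, and the exact 95% interval reaches 3.16%. It was found in 1 of 29 clonotypes in spleen CD4 (3.45% against 7.66%), 1 of 45 in lung CD4 (2.22% against 7.48%) and 3 of 60 in Treg (5% against 6%), where the exact intervals included the value of other segments. Features known to mark self-reactive receptors were too few to set TRBV14 apart. Both of positions 6 and 7 were hydrophobic in 11 WT CD8 clonotypes (1.21% against 0.985% in other V segments), 1 in spleen CD4 (3.45% against 0.696%), 2 in Treg (3.33% against 1.31%) and none in KO CD8 or lung CD4 (others 0.544% and 0.455%). Cys in the middle of the CDR3 was found in 2, 1, 1, 0 and 0 clonotypes in the order WT CD8, KO CD8, spleen CD4, lung CD4 and Treg, against 0.127% to 0.460% of clonotypes of other V segments.

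TRBV14 reads were spread over many clones in WT CD8 and gathered in a few in the KO conventional libraries. The leading clone took 1.70% of TRBV14 reads in WT CD8, 46.1% in KO CD8, 53.1% in spleen CD4, 38.3% in lung CD4 and 8.09% in Treg. For 50% of TRBV14 reads 189 clonotypes were needed in WT CD8, 2 in KO CD8, 1 in spleen CD4, 3 in lung CD4 and 12 in Treg. The inverse Simpson index, the number of equally large clones that would give the same evenness, was 433 in WT CD8, 3.77 in KO CD8, 3.16 in spleen CD4, 5.62 in lung CD4 and 31.5 in Treg. These values also move with the number of clonotypes, which ran from 30 to 923. Over all V segments, 50% of productive reads came from 18.0% of clonotypes in WT CD8, 0.643% in KO CD8, 8.29% in spleen CD4, 3.64% in lung CD4 and 15.3% in Treg. Among TRBV14 clonotypes the corresponding shares were 20.5%, 1.71%, 3.33%, 6.52% and 19.4%. The whole-library share was the smaller in every library but spleen CD4, so the concentration in KO CD8 and lung CD4 was not particular to TRBV14. In spleen CD4 the TRBV14 share was the smaller, at 1 of 30 clonotypes, the lowest value possible there.

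**Figure D5:**
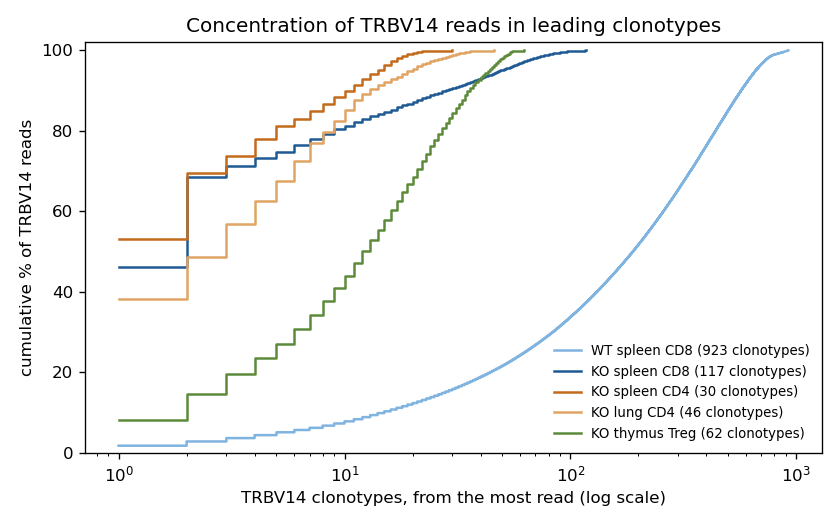
Cumulative percentage of TRBV14 reads against the number of TRBV14 clonotypes, ordered from the most read, on a log scale. The first clonotype holds 53.1% of TRBV14 reads in KO spleen CD4, 46.1% in KO spleen CD8, 38.3% in KO lung CD4, 8.09% in KO thymus Treg and 1.70% in WT spleen CD8.

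In WT CD8 the leading clones were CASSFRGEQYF (TRBJ2-7) with 205 reads, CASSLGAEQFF (TRBJ2-1) with 127 and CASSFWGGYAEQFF (TRBJ2-1) with 101. They ranked 3, 11 and 19 among all clonotypes of that library, although none held more than 0.133% of productive reads. In KO CD8, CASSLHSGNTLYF (TRBJ1-3) had 4544 reads, 2.38% of productive reads, and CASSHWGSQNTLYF (TRBJ2-4) had 2212, or 1.16%. The next clone, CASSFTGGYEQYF (TRBJ2-7), had 267 reads, so most of the TRBV14 reads of this library came from 2 joints. The first of them was also present in WT CD8 with 13 reads of the same nucleotide sequence, and the second was not found in any other library.

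In KO spleen CD4, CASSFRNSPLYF (TRBJ1-6) had 1844 reads and was the second most read clonotype of any V segment in its library, followed by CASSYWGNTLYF (TRBJ2-4) with 573 and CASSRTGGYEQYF (TRBJ2-7) with 145. In KO lung CD4, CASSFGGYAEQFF (TRBJ2-1) had 1587 reads and ranked 6, followed by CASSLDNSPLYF (TRBJ1-6) with 431 and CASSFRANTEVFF (TRBJ1-1) with 345. Of these 6 nucleotide sequences, that of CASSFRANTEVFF also had 14 reads in WT CD8, and the other 5 had none outside their library. In Treg the leading clones were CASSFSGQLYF (TRBJ2-2) with 361 reads, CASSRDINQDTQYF (TRBJ2-5) with 291 and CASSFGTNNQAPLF (TRBJ1-5) with 224, none of them found elsewhere.

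By the median, TRBV14 clonotypes were read more often than others. The median number of reads was 10 in WT CD8 against 6 for other V segments, 16 in KO CD8 against 8, 36.5 in spleen CD4 against 26, 14.5 in lung CD4 against 10 and 50.5 in Treg against 31. The direction of the medians was the same in all 5 libraries. Clonotypes with a single read were nonetheless more frequent with TRBV14 in spleen CD4 (26.7% against 14.3%) and lung CD4 (21.7% against 16.1%), and less frequent in WT CD8 (14.5% against 16.4%), KO CD8 (13.7% against 19.55%) and Treg (9.68% against 11.4%). Among standard CDR3s, no other segment had a higher median than TRBV14 in KO CD8 or lung CD4, 2 did in WT CD8 and in Treg, and 4 did in spleen CD4. More cells per clone and more beta-chain RNA per cell cannot be told apart in these reads.

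Few TRBV14 clonotypes were found in more than 1 library. By amino acid sequence and J segment, 46 of 1042 (4.42%) were in at least 2 libraries, 3 in 3 libraries and none in 4. Of the 46, 40 included WT CD8, the library with the most clonotypes. The matching share for other V segments was not computed, so 4.42% cannot be called low or high for a V segment. Between WT and KO CD8, 25 were shared, or 2.98% of the WT and 21.9% of the KO TRBV14 clonotypes, against 3.52% and 21.02% for other V segments. KO spleen CD8 and KO lung CD4 of mouse 617 shared 5 nucleotide clonotypes, 4.27% of the CD8 and 10.9% of the lung CD4 set, against 8.35% and 6.38% for other V segments. Other pairs went both ways by amino acid sequence. WT CD8 shared 21.7% of the lung CD4 set (10 clonotypes) against 13.8% for other V segments. It shared 10% of the spleen CD4 set (3 clonotypes) against 15.9%.

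The clonotypes in 3 libraries were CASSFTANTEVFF (TRBJ1-1), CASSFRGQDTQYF (TRBJ2-5) and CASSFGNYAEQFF (TRBJ2-1). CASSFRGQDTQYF was the sole one in 3 mice, with 16 reads in WT CD8, 53 in spleen CD4 and 11 in lung CD4. It had a single nucleotide form, in which all bases between V and J were assigned to TRBD1. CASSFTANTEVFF had one form in both libraries of mouse 617, with 30 reads in CD8 and 58 in lung CD4, and another in WT CD8 with 19 reads. All forms but one are shown with capitals between the V and J ends.
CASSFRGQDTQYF, all 3 libraries: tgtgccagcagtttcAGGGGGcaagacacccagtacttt
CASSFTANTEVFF, mouse 617: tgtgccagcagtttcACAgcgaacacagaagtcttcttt
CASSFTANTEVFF, WT spleen CD8: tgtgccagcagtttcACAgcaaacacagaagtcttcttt
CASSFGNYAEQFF, mouse 617: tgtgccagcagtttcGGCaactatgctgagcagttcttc
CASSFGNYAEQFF, WT spleen CD8: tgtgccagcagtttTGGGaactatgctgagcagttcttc
The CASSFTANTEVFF forms have the same bases up to the J start and part within the listed J, whereas the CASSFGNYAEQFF forms shown part at the joint. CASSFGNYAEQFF had 21 reads of the form shown in KO CD8 and 1 in lung CD4, and 19 reads of the other form in WT CD8. A further form, not shown, had 4 reads in KO CD8.

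The most read of those in 2 libraries were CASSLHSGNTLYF (4557 reads in all), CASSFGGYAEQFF (1603), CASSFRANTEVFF (359), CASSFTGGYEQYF (304), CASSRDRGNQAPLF (219), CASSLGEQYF (197) and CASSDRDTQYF (180). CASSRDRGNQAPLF was found only in mouse 617, with 12 reads in CD8 and 207 in lung CD4, and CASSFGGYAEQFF had different nucleotide forms in lung CD4 and WT CD8. Shared CDR3s averaged 12.7 ± 1.11 residues over 106 nucleotide clonotypes, counted once in each library that held them. The 1053 that were not shared averaged 13.04 ± 1.42. No inserted base was found in 51.9% of the shared against 45.9%, while the mean number of inserted bases was 1.56 against 1.55. The libraries were pooled here, and whether their mix plays a part was not tested.

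Within WT CD8, 71 of 839 TRBV14 amino acid clonotypes (8.46%) were encoded by more than 1 nucleotide sequence, against 7.65% for other V segments; in KO CD8 it was 3 of 114 (2.63% against 3.965%). In the CD4-lineage libraries there was none, against 2.84% to 3.91% for other V segments. These held 30, 46 and 62 TRBV14 amino acid clonotypes in spleen CD4, lung CD4 and Treg. With so few, a count of 0 in a library does not set TRBV14 apart there. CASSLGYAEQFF (TRBJ2-1) had 4 forms, shown with the bases that vary in capitals.
Form 1, 36 reads: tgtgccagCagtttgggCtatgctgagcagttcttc
Form 2, 27 reads: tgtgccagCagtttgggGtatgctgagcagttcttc
Form 3, 10 reads: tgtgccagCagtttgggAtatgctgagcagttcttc
Form 4, 1 read: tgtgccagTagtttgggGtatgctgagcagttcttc
The first 3 vary in the last base of the Gly codon at the joint, and the fourth, with 1 read, varies inside the V segment. In WT CD8, 95 TRBV14 clonotypes (10.3%) lay 1 base from one of the same J segment and length with at least 10 times the reads. The matching count for other V segments was not tabulated. Removing such clonotypes of every V segment lowered the TRBV14 share from 5.53% to 5.28%. They were thus more frequent with TRBV14 than with the other segments together. Whether they add to the 8.46% above was not tested.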

How the data were processed

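T cells were sorted into lysis buffer, their RNA was amplified with the SMARTer Mouse TCR a/b kit, and beta-chain clonotypes were deposited, per the labels. Per the submitters' processing notes, mm10 was the genome build. For alignment, clonotype calling and error correction, the tools were not given in the sources used here. Each deposited table gives, per CDR3, a raw count of reads, its fraction of the library, the V, D and J names and, as other values in bases, the positions of segment ends, per the file headers. Of 42 samples in 14 groups from 6 mice (3 per genotype), 5 libraries were used and 37 samples were not analysed here.

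Shares of productive clonotypes carry exact Clopper-Pearson intervals and ratios 95% log intervals (Python 3.11.15, pandas 2.3.3, SciPy 1.17.1), for counting error only; the interval code was tested on simulated data. Inserted bases are those between the listed V, D and J ends. The gene's position came from RefSeq. The segment, the compared segments and the lists were chosen with earlier results of these data known. Named were the 3 most read TRBV14 clonotypes per library, the 10 found in most libraries, J segments past the fold and the 3 most similar V segments; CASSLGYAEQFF, the nonproductive sequences and TRBJ2-7, TRBV17 and TRBV22 were named after their values were seen. Alternatives were a minimum of 2 reads, amino acid clonotypes, weighting by reads, 96229 productive reads per library (mean of 20 draws), standard CDR3s and removal of clonotypes 1 base from one with 10 times the reads. For nonproductive clonotypes, a usual start and length and the removal of near copies (edlib 1.3.9.post1) were added after seeing the data.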

Additional observations from a re-analysis of the deposited data

How the results depend on the processing

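Under 5 settings (at least 2 reads, amino acid clonotypes, equal depth, standard CDR3s, removal of 1-base neighbours) all 25 values per setting, 5 each of share, ratio, TRBJ1 share, mean length and junctions without inserted bases, moved by less than their counting interval. Weighting by reads moved 16 of 25, and the cause was not tested. A reversal was defined only for the ratios of KO CD8 to spleen CD4 and to lung CD4, and neither reversed. The share became 7.82% in WT CD8, 3.61% in spleen CD4, 3.04% in lung CD4 and 2.26% in Treg. The ratios became 0.659 for KO to WT CD8, 1.43 for KO CD8 to spleen CD4 and 1.70 for KO CD8 to lung CD4. The TRBJ1 share became 20.98% in WT CD8, 52.0% in KO CD8 and 68.6% in spleen CD4. The mean length over all productive CDR3s became 12.9 in WT CD8 and 12.4 in spleen CD4. Junctions without inserted bases became 50.1% in WT CD8, 22.0% in KO CD8, 73.5% in lung CD4 and 45.9% in Treg. With near copies removed, the nonproductive share of WT CD8 became 3.44%. No paired analysis was possible because each group had 1 library and no test was made. With 30 to 62 TRBV14 clonotypes in each CD4-lineage library, J, length and junction values there are imprecise, and leaving out a library would leave a group empty.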
